A study of Rattus norvegicus with 17 samples.

Results

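Chemokines, interleukins, members of the tumour necrosis factor (TNF) family, their receptors and the NF-kappaB factors that act downstream of them were examined in whole kidney RNA of rats after sub-total nephrectomy. The set held 45 genes of 23487 in the count table. Members were selected on symbols that begin with a name of these families and, through the transcript lists of study 1 and study 2, on the measured SNx against control differences that order those lists. The upper part of each list was used, ordered by strength of evidence, and these parts pair 2007 identifiers with a symbol. Il19, Il24 and Il7r were left out by the rule. The libraries analysed here were those of study 2. Of the 45 members, 32 stood only in the study 1 list, which was made from other rats at another site, and 13 stood in the study 2 list (10 stood in both). The study 2 list compared rats of this same study, and whether it used all of these libraries is not clear from the sources used here. The difference between groups is therefore tested for the 32 and only described for the 13.

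The SNx group held 12 libraries from kidneys of male Wistar Han rats in which part of the right kidney was resected and the left kidney was removed in a later operation. The NoOp group held 5 control libraries, for which the study's methods speak of sham operation while the labels say NoOp. No rat carried a transgene or received a drug by the labels. Rats were killed when proteinuria or serum creatinine passed a limit, so time after surgery differed between rats. By the study's account fewer operated rats of study 2 passed it than the 12 SNx libraries here. If each library is a separate rat, some SNx libraries come from rats that did not pass, and the labels do not say which. Sequencing depth differed between the groups, with 19210434 to 30784070 counts in SNx libraries (median 22709319) and 30454170 to 43876369 in NoOp libraries (median 32745316). RNA integrity varied widely by the study's methods and is not given per library in the sources used here, so its part in the results was not tested.

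Chemokines are small secreted proteins that draw leukocytes along a gradient through G protein coupled receptors, with CC and CXC ligands binding CCR and CXCR receptors. Interleukins and colony stimulating factors signal mostly through receptor chains coupled to JAK kinases and STAT factors, and TNF receptors signal through TRAF adaptors to NF-kappaB. NF-kappaB dimers bind kappaB sites in DNA and induce many cytokines as well as their own inhibitors. In the kidney, injured tubular cells and infiltrating leukocytes are both known sources of these transcripts.

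The sequences of kappaB consensus matches are shown first, since several members are known NF-kappaB targets. Promoters from RefSeq (assembly GRCr8) were matched by symbol for 35 members, and 10 had no entry. The kappaB consensus, read on both strands, was found within 250 bases before the start of 6 of the 35 (17.1%) and of 2117 of all 33469 promoters in the table (6.33%). Below, 80 bases around the matches are printed 5′ to 3′ on the strand of the gene, with the matching bases in capitals.
Ccl7, chr10:67514001-67514080, + strand: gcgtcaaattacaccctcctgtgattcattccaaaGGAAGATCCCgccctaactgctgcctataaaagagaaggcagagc
Cxcl6, chr14:17596461-17596540, - strand: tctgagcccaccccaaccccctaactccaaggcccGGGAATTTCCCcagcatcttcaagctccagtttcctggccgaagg
Nfkb2, chr1:255108294-255108373, + strand: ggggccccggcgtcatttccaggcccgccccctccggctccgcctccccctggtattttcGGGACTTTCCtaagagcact
Nfkbie, chr9:22947992-22948071, - strand: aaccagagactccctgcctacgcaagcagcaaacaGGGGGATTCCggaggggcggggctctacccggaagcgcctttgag
Nfkbiz, chr11:58251641-58251720, + strand: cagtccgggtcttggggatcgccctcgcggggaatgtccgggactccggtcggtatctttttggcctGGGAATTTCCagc
Tnfaip3, chr1:15543996-15544075, - strand: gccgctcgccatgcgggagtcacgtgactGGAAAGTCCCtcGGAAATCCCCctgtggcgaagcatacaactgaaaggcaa
The match of Cxcl6 consists of 2 overlapping matches, and Tnfaip3 had 3 matches in its 250 bases, 2 of them in the printed stretch. All 6 genes had a higher level in SNx, as had 40 of the 44 members that passed the filter, and 4 of the 6 were chosen on this difference. A match to these letters is a description of the sequence and not a measured binding site.

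Across all members most transcripts were higher in the SNx kidneys. Of the 31 members with a test, 27 were higher in SNx and 3 were lower (Tnfrsf11b, Tnfrsf21 and Tnfaip8) at an adjusted p under 0.05 in edgeR's quasi-likelihood test, and Tnfaip2 did not pass. By the same test 30.3% of all 15438 tested genes were higher and 27.7% lower. Among the 1528 tested genes found only in the study 1 list, which were selected in the same way as these 31, 49.7% were higher and 42.3% lower. The median log2 fold change was 1.62 over the 31 members, 0.35 over those 1528 genes and 0.02 over all tested genes. Over the 13 members of the study 2 list it was 1.78, with 12 higher and Csf2rb lower in every SNx library than in any NoOp library. Of the 31, 26 had every SNx library above every NoOp library and 2 had every one below. The same held for 36.1% and 25.3% of the 1528 genes and for 13.5% and 9.60% of all tested genes. With the 13 included, for which the choice of members used this difference, 38 of 44 lay above and 3 below. The last member inside the listed part of study 1 was Osmr (log2 fold change 2.44 here) and that of study 2 was Tnfrsf1a (1.14). The genes just outside those lists have no symbol in the sources used here and are not shown.

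**Figure D1:**
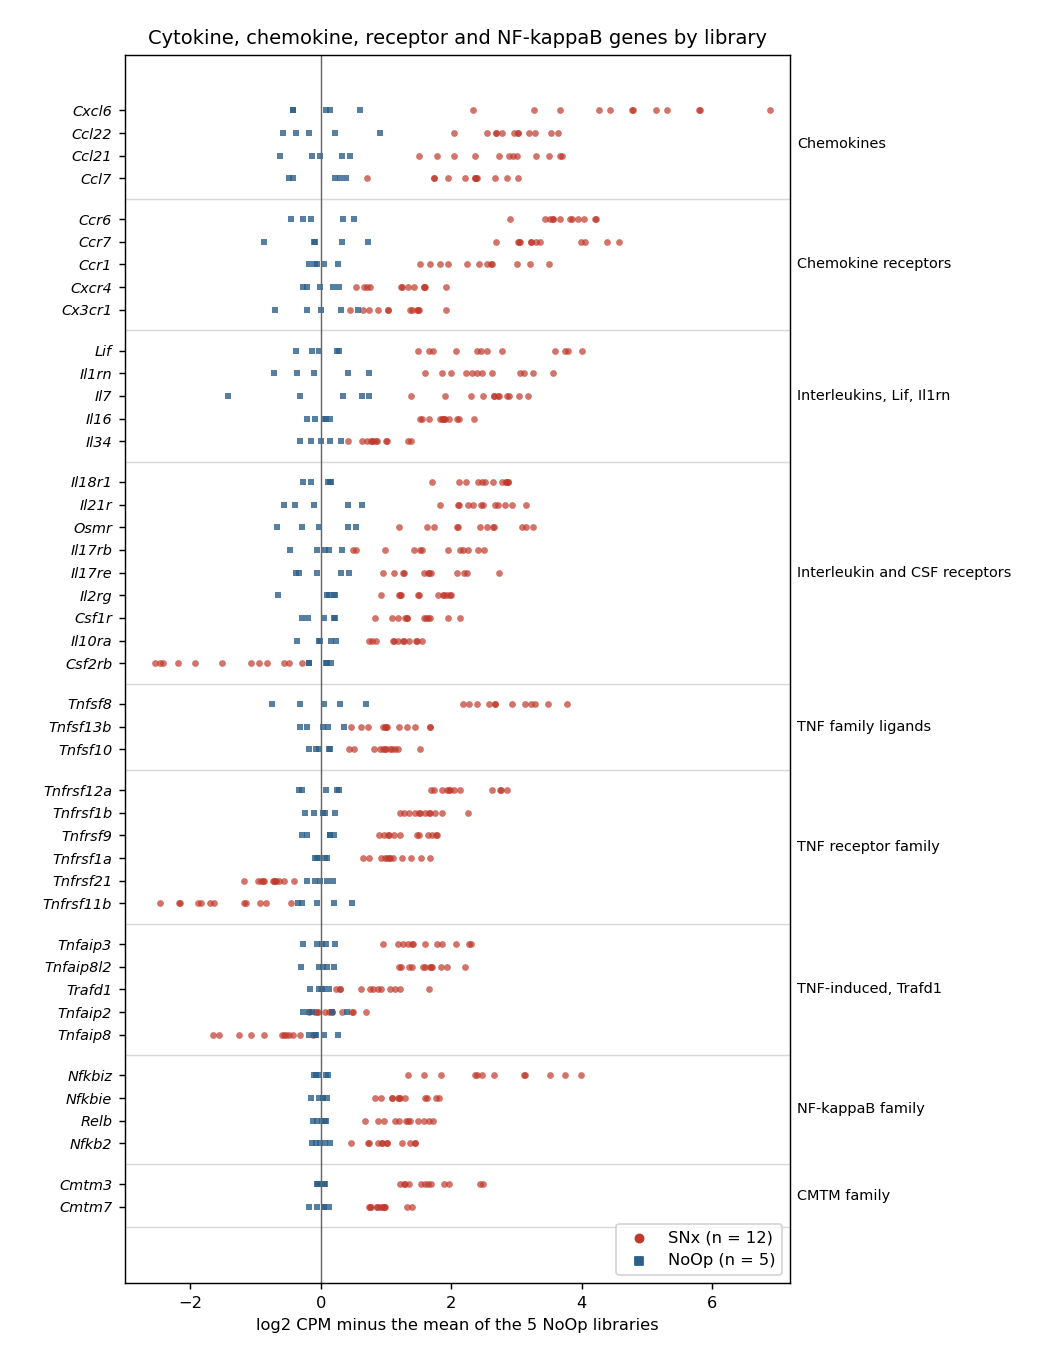
Log2 CPM of the members described in the text in each library, as the difference from the mean of the 5 NoOp libraries, with 12 SNx libraries as red circles and 5 NoOp libraries as blue squares. For most members all red points lie to the right of all blue points, and for Csf2rb, Tnfrsf21 and Tnfrsf11b all lie to the left.

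Among the chemokines, Ccl7, Ccl21, Ccl22 and Cxcl6 all rose in SNx kidneys. Cxcl6 (ENSRNOG00000002843, chromosome 14), a neutrophil attractant of the CXC class, was nearly absent from control kidneys. Its counts in NoOp 1 to NoOp 5 were 1, 0, 1, 3 and 0, and in SNx they ran from 12 (SNx 4) through a median of 74.0 to 278 (SNx 5). Summed over each group and scaled to library size, 988 counts against 5 gave a ratio of 104 (95% exact interval 44.4 to 321, which covers counting error only). The fitted log2 fold change was 6.59 (standard error 0.94, edgeR quasi-likelihood adjusted p = 3.0e-05), and at such counts its size depends on the fit. No SNx library was as low as any control.

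Ccl7 (ENSRNOG00000000239, chromosome 10), a monocyte attractant, had the smallest change of the 4 tested chemokines. Its log2 CPM (the log2 of counts scaled to a fixed library size, CPM) was -1.48, -0.83, -1.53, -0.76 and -0.66 in NoOp 1 to NoOp 5, and in SNx it ran from -0.34 (SNx 4) through a median of 1.31 to 1.97 (SNx 5). The groups did not overlap, and the log2 fold change was 2.43 (standard error 0.34, edgeR quasi-likelihood adjusted p = 2.5e-05).

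Between these lay Ccl22, which attracts CCR4-bearing T cells (log2 fold change 3.49), and Ccl21, a ligand of Ccr7 that guides T cells and dendritic cells (2.90). Ccl21 stood at 6.65 ± 0.73 log2 CPM in SNx (mean ± SD, n = 12) and at 3.87 ± 0.42 in NoOp (n = 5), and unlike Cxcl6 and Ccl7 it was lowest in SNx 5. Ccl22 was a transcript of low count, with 2 to 8 counts in NoOp and 15 to 55 in SNx. Ccl3, a ligand of Ccr1, had 2 to 24 counts in SNx and 5 to 11 in NoOp and did not pass the filter on low counts. Fitted with no filter, its log2 fold change was 0.34 (standard error 0.47, edgeR quasi-likelihood adjusted p = 0.57). Near-identical Ccl21 copies occur in rodents, so the split of its reads is uncertain.

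The chemokine receptors with a test were higher in SNx, and so was Ccr6 in every library. Ccr6 (ENSRNOG00000012964, chromosome 1), the receptor of Ccl20 on B cells and some T cells, was chosen on this difference. NoOp 1 to NoOp 5 had -1.99, -1.82, -2.60, -2.49 and -2.79 log2 CPM, and SNx libraries lay between 0.56 (SNx 11) and 1.88 (SNx 2), with a median of 1.41. The log2 fold change was 4.31 (standard error 0.30), with no test.

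Ccr7, which brings lymphocytes and dendritic cells toward Ccl21, had a log2 fold change of 3.99, near that of Ccr6, and without NoOp 3 its value was the higher one (4.32 against 4.20). It was highest in SNx 10 at 2.45 log2 CPM, while no control exceeded -1.40. Ccr1 (2.68), a receptor of inflammatory CC chemokines on monocytes, and Cxcr4 (1.28), the receptor of Cxcl12, also had no overlap between groups. Each of these 3 passed the test.

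Cx3cr1 (ENSRNOG00000018509, chromosome 8), the fractalkine receptor of monocytes and resident macrophages, had a change close to that of Cxcr4. Its log2 CPM was 3.31, 3.05, 2.53, 2.74 and 2.04 in NoOp 1 to NoOp 5 and ran from 3.18 (SNx 8) through 3.93 to 4.66 (SNx 5) in SNx. Only SNx 8 lay below the highest control. The log2 fold change was 1.17 (standard error 0.24, edgeR quasi-likelihood adjusted p = 7.1e-04).

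**Figure D2:**
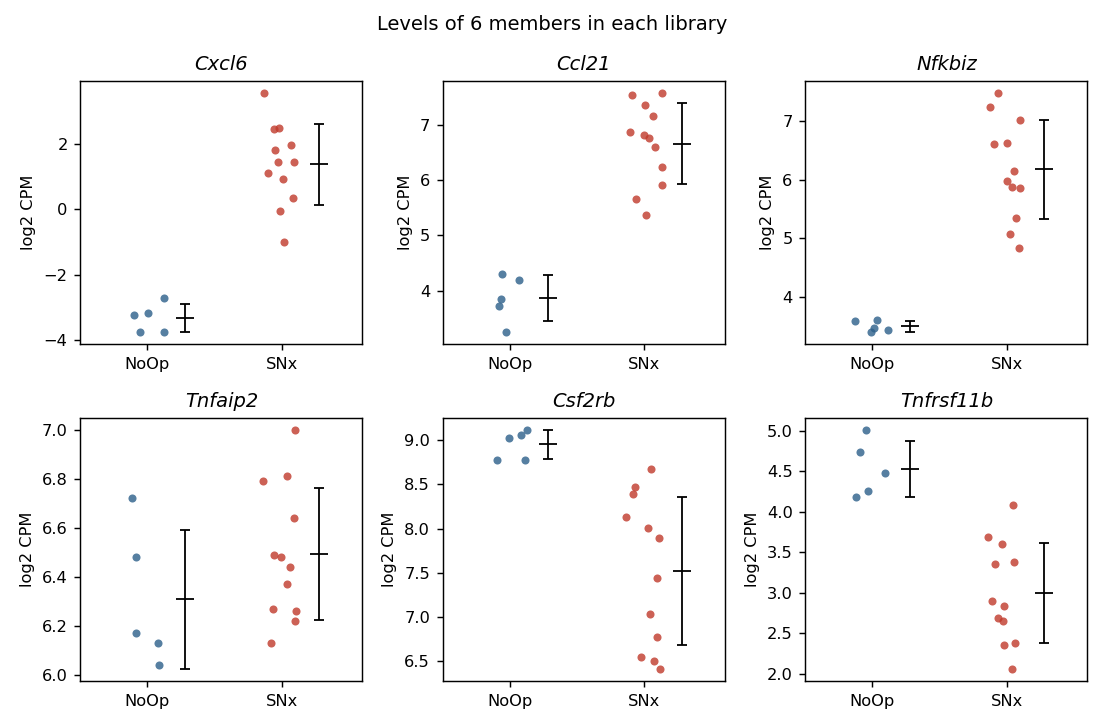
Log2 CPM of 6 members in each NoOp library (n = 5, blue) and each SNx library (n = 12, red), with horizontal offsets for legibility and the mean ± SD beside the points. Cxcl6, Ccl21 and Nfkbiz lie higher in every SNx library, Csf2rb and Tnfrsf11b lower, and Tnfaip2 overlaps.

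All 5 interleukins and related ligands were higher in every SNx library, and the 4 with a test passed it. Lif (ENSRNOG00000007002, chromosome 14), a cytokine of the interleukin-6 family, had log2 CPM of 1.02, 1.33, 1.30, 0.91 and 0.66 in NoOp 1 to NoOp 5. In SNx it ran from 2.53 (SNx 4) through 3.55 to 5.05 (SNx 1), a wide spread (SD 0.90 against 0.28 in NoOp). Its log2 fold change was 2.96 (standard error 0.47, edgeR quasi-likelihood adjusted p = 7.9e-05). Il1rn, the antagonist of the interleukin-1 receptor, and Il7, which sustains lymphocytes, had log2 fold changes of 2.63 and 2.60. Lif and Il7 exchanged order under limma-voom (2.68 and 2.71) and with SNx libraries of the higher title numbers alone (2.56 and 2.62). Il16, a chemoattractant of CD4+ cells, had 1.91 and varied little among SNx libraries (SD 0.24), with no test.

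Il34 (ENSRNOG00000017602, chromosome 19), a ligand of the macrophage growth factor receptor Csf1r that tubular cells are known to make, changed least. NoOp 1 to NoOp 5 had 4.59, 4.77, 5.05, 5.23 and 4.92 log2 CPM, and SNx libraries had 5.34 (SNx 11) to 6.30 (SNx 6), with a median of 5.74. The gap between the groups was small, but no SNx library fell among the controls. The log2 fold change was 0.89 (standard error 0.14, edgeR quasi-likelihood adjusted p = 9.1e-05).

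Of the 9 interleukin and colony stimulating factor receptors, 8 were higher in every SNx library and 1 was lower. The 5 with a test, which all rose, were Il21r (log2 fold change 2.50) and Il2rg (1.61), chains of the interleukin-21 receptor and the common gamma chain, Osmr (2.44), the oncostatin M receptor chain, Csf1r (1.51) and Il10ra (1.20), the ligand-binding chain for interleukin-10. Il17rb (1.79) and Il17re (1.78), receptors for interleukin-25 and interleukin-17C, stood in the study 2 list.

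Il18r1 (ENSRNOG00000015027, chromosome 9), which binds interleukin-18, had a change close to that of Il21r. Its log2 CPM was 1.36, 1.04, 1.34, 1.31 and 0.92 in NoOp 1 to NoOp 5 and 2.90 (SNx 11) to 4.06 (SNx 5) in SNx, with a median of 3.78. All SNx libraries lay above all controls, at a log2 fold change of 2.59 (standard error 0.19, no test). Without NoOp 3 the value of Il21r was the higher (2.69 against 2.62), as it was with SNx libraries of the higher title numbers alone (2.56 against 2.54).

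Csf2rb (ENSRNOG00000000187, chromosome 7), the shared beta chain of the receptors for interleukin-3, interleukin-5 and granulocyte-macrophage colony stimulating factor, moved the other way. It had 12585 to 20187 counts in control kidneys. NoOp 1 to NoOp 5 had 9.06, 9.12, 8.78, 9.03 and 8.78 log2 CPM, and in SNx it ran from 6.41 (SNx 5) through 7.66 to 8.67 (SNx 4). Every SNx library lay below every control, and the SD was 0.84 in SNx against 0.16 in NoOp. The log2 fold change was -1.23 (standard error 0.33, no test).

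The 3 TNF family ligands all rose. Tnfsf8 (ENSRNOG00000048321, chromosome 5), the CD30 ligand of activated leukocytes, had log2 CPM of -1.0, -1.37, -1.80, -0.76 and -0.37 in NoOp 1 to NoOp 5 and 1.13 (SNx 10) to 2.71 (SNx 1) in SNx, with a median of 1.74. The lowest SNx library was well above the highest control, and the log2 fold change was 3.07 (standard error 0.33, edgeR quasi-likelihood adjusted p = 2.2e-06). Tnfsf13b, the B cell survival factor BAFF, had a log2 fold change of 1.14. Tnfsf10 (ENSRNOG00000013269, chromosome 2), the death ligand TRAIL, had the smallest at 1.0 (standard error 0.14, adjusted p = 2.3e-05 from the same test). Its log2 CPM was 5.30, 5.47, 5.45, 5.25 and 5.14 in NoOp 1 to NoOp 5 and 5.76 (SNx 4) to 6.85 (SNx 5) in SNx, with a median of 6.32 and no overlap.

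The TNF receptors moved in both directions. Tnfrsf12a (ENSRNOG00000003546, chromosome 10), the receptor of TWEAK, had log2 CPM of 3.48, 3.52, 4.09, 3.89 and 4.06 in NoOp 1 to NoOp 5 and 5.50 (SNx 4) to 6.67 (SNx 5) in SNx, with a median of 5.82. It was higher in every SNx library, at a log2 fold change of 2.24 (standard error 0.23, no test). The TNF receptors proper were both higher, Tnfrsf1b (TNFR2) with a log2 fold change of 1.62, which passed the test, and Tnfrsf1a (TNFR1) with 1.14, which has none. Tnfrsf9, the co-stimulatory receptor 4-1BB, also rose (1.39).

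Tnfrsf11b (ENSRNOG00000008336, chromosome 7) encodes osteoprotegerin, the secreted decoy receptor of RANKL, and fell the most of all members. NoOp 1 to NoOp 5 had 4.18, 4.47, 4.73, 4.25 and 5.01 log2 CPM, and SNx libraries had 2.06 (SNx 8) to 4.08 (SNx 11), with a median of 2.87. The highest SNx value came close to the lowest control without reaching it. The log2 fold change was -1.45 (standard error 0.26, edgeR quasi-likelihood adjusted p = 2.8e-04). Tnfrsf21 (ENSRNOG00000011517, chromosome 9), the death domain receptor DR6, also fell, with -0.76 as its log2 fold change (standard error 0.10, adjusted p = 1.7e-05 from the same test). It had 9.19, 9.07, 9.27, 9.47 and 9.37 log2 CPM in NoOp 1 to NoOp 5 and 8.10 (SNx 7) to 8.86 (SNx 4) in SNx, with a median of 8.56 and no overlap.

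Transcripts named for induction by TNF were not uniform either. Tnfaip3 (ENSRNOG00000049517, chromosome 1), which encodes the NF-kappaB inhibitor A20, had log2 CPM of 3.27, 3.05, 3.40, 3.55 and 3.34 in NoOp 1 to NoOp 5 and 4.28 (SNx 11) to 5.62 (SNx 1) in SNx, with a median of 4.83. It was higher in every SNx library, at a log2 fold change of 1.68 (standard error 0.21, no test). Tnfaip8l2 (1.66), a restraint on immune receptor signalling in leukocytes, and Trafd1 (0.88), a feedback inhibitor of innate immune signalling, rose. Tnfaip3 and Tnfaip8l2 exchanged order in several settings, among them limma-voom (1.61 and 1.64) and SNx libraries of the higher title numbers alone (1.46 and 1.64).

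Tnfaip8 (ENSRNOG00000026136, chromosome 18), a regulator of apoptosis, had log2 CPM of 7.17, 7.38, 7.04, 7.02 and 6.94 in NoOp 1 to NoOp 5 and 5.46 (SNx 1) to 6.99 (SNx 4) in SNx, with a median of 6.53. Only SNx 4 reached into the control range. The decrease was -0.72 as a log2 fold change (standard error 0.20, edgeR quasi-likelihood adjusted p = 0.0059). Tnfaip2 (ENSRNOG00000010165, chromosome 6), known for a role in membrane protrusions, had 6.13, 6.17, 6.04, 6.48 and 6.72 log2 CPM in NoOp 1 to NoOp 5 and 6.13 (SNx 11) to 7.0 (SNx 1) in SNx, with a median of 6.46. The groups overlapped, with 3 SNx libraries above all controls, and the log2 fold change of 0.18 (standard error 0.14) did not pass (adjusted p = 0.27 from the same test).

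The 4 NF-kappaB genes, all from the study 2 list and thus without a test, were higher in every SNx library. Nfkbiz (ENSRNOG00000031163, chromosome 11), a nuclear co-regulator of a subset of NF-kappaB targets, had log2 CPM of 3.60, 3.42, 3.58, 3.46 and 3.39 in NoOp 1 to NoOp 5. In SNx it ran from 4.83 (SNx 11) through 6.06 to 7.48 (SNx 5), and its log2 fold change was 2.91 (standard error 0.42). The controls stood within a narrow band (SD 0.10) while the SNx libraries spread widely (SD 0.85). Nfkbie, an inhibitor that holds NF-kappaB in the cytoplasm, and Relb, a subunit of the non-canonical pathway, had log2 fold changes of 1.34 and 1.31. Nfkb2 (ENSRNOG00000019311, chromosome 1), the partner of Relb, had the smallest at 1.05 (standard error 0.14). Its log2 CPM was 5.38, 5.31, 5.59, 5.43 and 5.52 in NoOp 1 to NoOp 5 and 5.92 (SNx 11) to 6.90 (SNx 1) in SNx, with a median of 6.43.

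The chemokine-like CMTM genes both rose without overlap. Cmtm3 (ENSRNOG00000010691, chromosome 19) had 2.27, 2.35, 2.36, 2.23 and 2.25 log2 CPM in NoOp 1 to NoOp 5 and 3.51 (SNx 11) to 4.78 (SNx 5) in SNx, with a median of 3.92. Its log2 fold change was 1.78 (standard error 0.21, edgeR quasi-likelihood adjusted p = 6.2e-06). Cmtm7 (ENSRNOG00000010986, chromosome 8) had 3.76, 3.44, 3.68, 3.57 and 3.67 log2 CPM in NoOp 1 to NoOp 5 and 4.36 (SNx 4) to 5.03 (SNx 1) in SNx, with a median of 4.55. Its log2 fold change was 0.97 (standard error 0.11), with an adjusted p of 3.1e-06 from the same test.

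Other genes of these pathways were counted from fixed lists. Only genes in the parts of the study's lists used here have a symbol, so nearly all had to differ, as the 49.7% higher and 42.3% lower among study 1 genes show, and these counts are not independent evidence of direction. Genes of the study 2 list are again given without a test. Of 44 further NF-kappaB and Toll-like receptor pathway genes, 13 had an identifier. Of the 9 found only in the study 1 list, 8 were higher and 1 lower by edgeR's quasi-likelihood test, and the 4 of the study 2 list had log2 fold changes above 0. Birc3, an inhibitor of apoptosis and NF-kappaB target, had 3.07 (standard error 0.36, no test). Chuk, the kinase IKK-alpha, was the one that fell (-0.63, standard error 0.19, edgeR quasi-likelihood adjusted p = 0.01). Of 24 genes of cytokine signalling through JAK and STAT, 8 had an identifier. Of the 4 found only in the study 1 list, 3 were higher and 1 lower, and the 4 of the study 2 list had log2 fold changes above 0. Socs3, a feedback inhibitor, had 3.34 (standard error 0.43, no test), and the transcriptional repressor Bcl6 fell (-0.59, standard error 0.23, edgeR quasi-likelihood adjusted p = 0.036). The median log2 fold change was 1.32 in the first list and 1.23 in the second.

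Markers of several cell types moved with the members. In bulk tissue, fewer cells of a type and less RNA per cell cannot be told apart. Markers too have an identifier only where they stand in the parts of the lists used here, so their direction is a description and largely set by that choice. Of 24 myeloid markers 16 had an identifier and all 16 had log2 fold changes above 0, with a summed level of 302 to 772 CPM in SNx and 106 to 180 in NoOp, and Ptprc, the pan-leukocyte CD45, was the most abundant. Of 13 B cell markers all 5 with an identifier were on the higher side, with sums of 14.4 to 57.5 against 1.81 to 2.79 CPM and Cd22 the most abundant. Of 26 T cell markers 4 of the 5 with an identifier were on the higher side and 1 did not pass, with sums of 104 to 153 against 67.3 to 83.5 CPM and Cd4 leading. All 5 dendritic cell markers with an identifier of 10 were on that side as well (sums 92.5 to 150 against 28.6 to 34.7 CPM, led by Irf8). None of 8 neutrophil and none of 11 endothelial markers had an identifier, so these cell types are not shown.

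Among structural cells, 8 of 10 proximal tubule markers had an identifier and all 8 had log2 fold changes below 0. Their sum was 1722 to 15410 CPM in SNx and 20796 to 24540 in NoOp, and the endocytic receptor Lrp2 was the most abundant, which bears out the kidney label of the samples. All 6 injured tubule markers with an identifier, of 10, had log2 fold changes above 0 (sums 3341 to 17221 against 581 to 873 CPM, led by Spp1). So had all 4 fibroblast markers, of 10, led by Col1a1, with sums of 877 to 9193 against 290 to 358 CPM. The 9193 CPM was that of SNx 1, and the other SNx libraries reached at most 2099. None of the sums shown was at 0 in any library. The part of cell composition in the group differences was not tested.

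Members varied more among SNx libraries than among controls, as did most genes. The SD of log2 CPM was larger in SNx for 36 of 44 members (81.8%) and for 81.9% of all tested genes, with a median SD of 0.42 in SNx and 0.24 in NoOp for the members. The extremes fell in few libraries. Over the 40 members with a higher mean in SNx, SNx 1 had the highest value for 18 and SNx 5 for 8, and SNx 11 had the lowest for 19 and SNx 4 for 9. SNx 1 also had the lowest proximal tubule sum (1722 CPM) and the highest myeloid (772 CPM) and fibroblast (9193 CPM) sums, and SNx 11 the highest proximal tubule sum among SNx (15410 CPM). In the controls NoOp 5 was lowest for 21 of these 40 members and had the lowest myeloid sum (106 CPM). Without SNx 1, SNx 11 or NoOp 5, as without any other library, 27 members with a test were higher and 3 lower.

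To ask what the members followed within the SNx group, each was related to the summed myeloid and the summed proximal tubule markers over the 12 SNx libraries. The study 1 list did not use these libraries. Which of its members were tested did depend on them, since those also in the study 2 list were set apart. The study 2 list was ordered by a statistic that depends on the spread among them, so its 13 members are again described with no test. In all 88 relations were computed, with two-sided permutation tests of Pearson's r and adjustment over the 88. This family includes the relations of the 13, whose p-values may loosen the adjusted threshold for the other members. No gene is both a member and in a sum.

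For myeloid markers 7 of the 31 members had a positive relation past an adjusted p of 0.05 and none a negative one (9 by Spearman's rho, these 7 included). With total counts taken out of both measures by regression 14 passed, so the count depends on the treatment of depth. No share of other genes under that treatment is available to set beside the 14. The 7 are 22.6% of the 31. At the same unadjusted p 3.65% of all tested genes outside the marker list had a positive and 2.30% a negative relation. Among genes found only in the study 1 list these shares were 11.1% and 1.39%. Among those of them that were also higher in SNx 22.1% had a positive relation, near the 25.9% of the 27 members that rose, and nothing particular to the members is read from this count. Csf1r (r = 0.95, rho = 0.93, permutation p = 1.0e-05, adjusted p = 1.8e-04), Tnfrsf1b (r = 0.91, rho = 0.88, permutation p = 3.0e-05, adjusted p = 3.3e-04) and Tnfaip8l2 (r = 0.90, rho = 0.84, permutation p = 5.0e-05, adjusted p = 4.9e-04) had the highest r. Without the 2 libraries farthest from the median myeloid sum these r were 0.89, 0.82 and 0.81. The others were Il10ra, Cmtm7, Cx3cr1 and Cxcr4. Csf1r and Cx3cr1 are themselves known macrophage genes. Tnfrsf21 (r = -0.54) and Tnfaip8 (r = -0.35) had the lowest r among the 31 and did not pass. Over the 13 members of the study 2 list r ran from -0.27 (Csf2rb) through a median of 0.42 to 0.71 (Tnfrsf1a), where the median was -0.04 over all tested genes and 0.48 over the study 1 genes higher in SNx.

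With the proximal tubule sum, 8 of the 31 members had a negative and 1 a positive relation past the same threshold. By rho 11 passed, with Il1rn lost (adjusted p = 0.053, permutation test) and Ccr1, Il7 and Tnfsf10 gained (adjusted p = 0.044, 0.014 and 0.046). Osmr passed by rho only just (adjusted p = 0.049, permutation test), so its pass may rest on the family of relations used. Many genes were related to this sum, 18.5% of all tested genes outside the list negatively and 23.2% positively at the same unadjusted p, against 25.8% and 3.23% of the 31. Among genes found only in the study 1 list 22.3% were related negatively and 40.0% positively. Among those also higher in SNx 42.6% had a negative relation, against 29.6% of the 27 members that rose, and the difference between these shares was not tested. With adjustment over the relations of all tested genes, a step chosen after seeing the data, the counts were again 7 for the myeloid sum and 8 and 1 for the proximal tubule sum. Trafd1 (r = -0.94, rho = -0.98) had a permutation p of 1.0e-05, the smallest that the permutations can give, and an adjusted p of 1.8e-04. Its r was -0.90 without the 2 libraries farthest from the median proximal tubule sum. The other negative ones were Lif, Cxcl6, Cmtm3, Cmtm7, Ccl7, Osmr and Il1rn. Tnfaip8 (r = 0.94, rho = 0.92, permutation p = 2.0e-05, adjusted p = 2.9e-04) followed the proximal tubule markers upward, with r of 0.90 without 2 libraries. The next highest was Ccr1 (r = 0.67, rho = 0.70, permutation p = 0.019 and 0.014, adjusted p = 0.053 and 0.044), which passed by rho alone. Of the 31, only Cmtm7 passed for both sums, and 16 passed for neither, among them Ccl21 and Ccr7. For Cmtm3, Cmtm7 and Il1rn the relation with the proximal tubule sum rested on the 2 farthest libraries, since r without them was -0.49, -0.38 and -0.44.

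Members of the study 2 list mostly lay at low r with the proximal tubule sum, with a median of -0.86 over the 13. The median was 0.02 over all tested genes and -0.61 over genes found only in the study 1 list that were higher in SNx. Il17re (-0.95), Nfkbiz (-0.92), Nfkbie (-0.91) and Nfkb2 (-0.90) had the lowest values. Il17rb, Tnfaip3, Relb, Tnfrsf12a and Tnfrsf1a followed with -0.88 to -0.75. Il18r1 had r = -0.66, Il16 -0.21, Ccr6 0.13 and Csf2rb 0.93. For Tnfrsf1a r was -0.43 without the 2 farthest libraries.

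**Figure D3:**
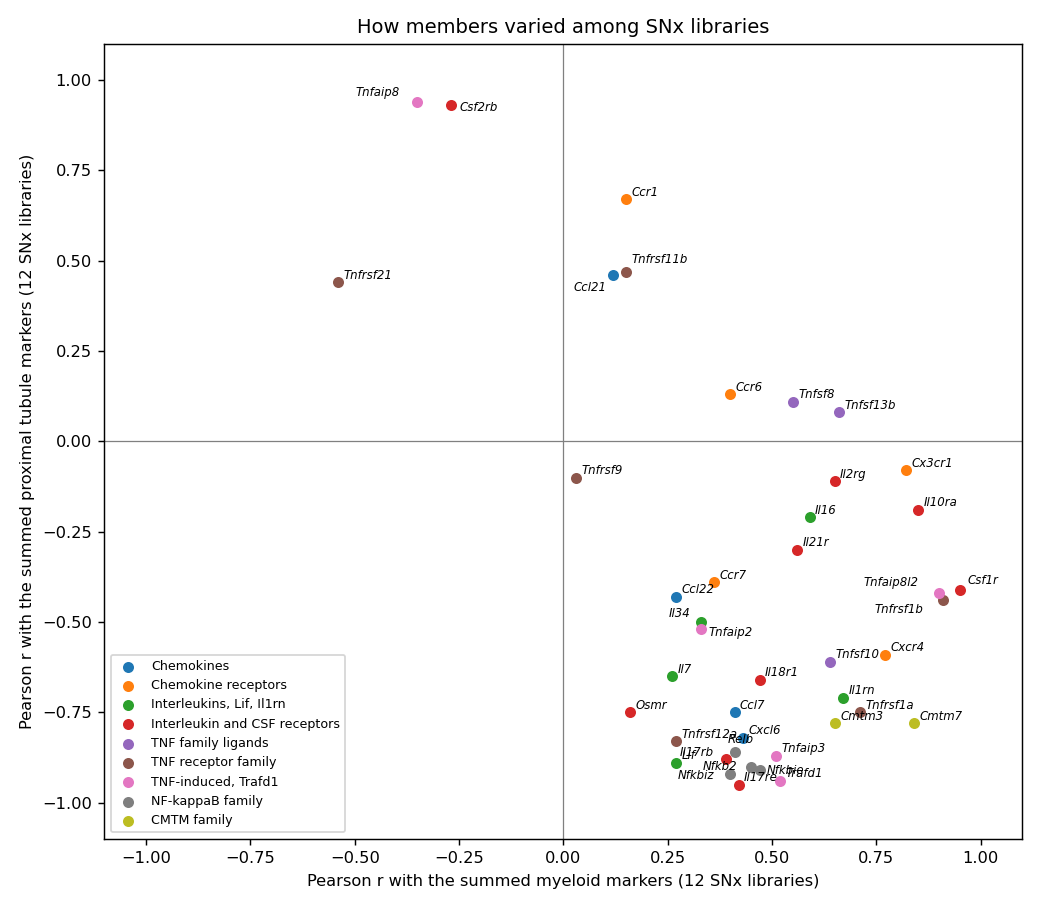
Pearson r of the members described in the text with the summed proximal tubule markers (vertical) against its r with the summed myeloid markers (horizontal), both over the 12 SNx libraries, with colours for the role of the gene. Csf1r, Tnfrsf1b and Tnfaip8l2 lie farthest right, Il17re and Trafd1 lowest, and Tnfaip8 and Csf2rb highest.

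The sums themselves were not clearly related (r = -0.42, rho = -0.47, permutation p = 0.18 and 0.13, adjusted p = 0.27 and 0.19 over 3 relations, r = 0.23 without 2 libraries). Sequencing depth moved with the proximal tubule sum. Total counts had r = 0.76 with it (rho = 0.64, permutation p = 0.0049 and 0.027, adjusted p = 0.015 and 0.08, r = 0.75 without 2 libraries) and r = -0.01 with the myeloid sum (rho = 0.02, permutation p = 0.97 and 0.96). When the logarithm of total counts was taken out of both measures by regression, a step chosen after seeing the data, 8 of the 9 proximal tubule relations of the 31 members still passed and Ccl7 did not (r = -0.54, permutation p = 0.074, adjusted p = 0.13), while Ccl22 (r = -0.76, adjusted p = 0.019) and Tnfrsf1b (r = -0.72, adjusted p = 0.035) were added, so that 10 passed in all. All 7 myeloid relations still passed, and 14 passed for that sum. How many other genes would pass with total counts taken out is not given here, so nothing particular to the members is read from these counts. By their titles the SNx libraries fall in a lower and a higher range of numbers with 6 each, while all controls are in the lower range, and whether these ranges mark a batch is not stated. Every one of the 7 and 9 relations kept its sign within both ranges. Absolute r was 0.72 to 0.98 and 0.56 to 0.96 in the lower and higher range for myeloid markers. For proximal tubule markers it was 0.69 to 0.97 and 0.13 to 0.99, the weakest being Cmtm7 (-0.13) in the higher range. With SNx libraries of the lower or the higher range alone against the controls, 27 members with a test were again higher and 3 lower.

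**Figure D4:**
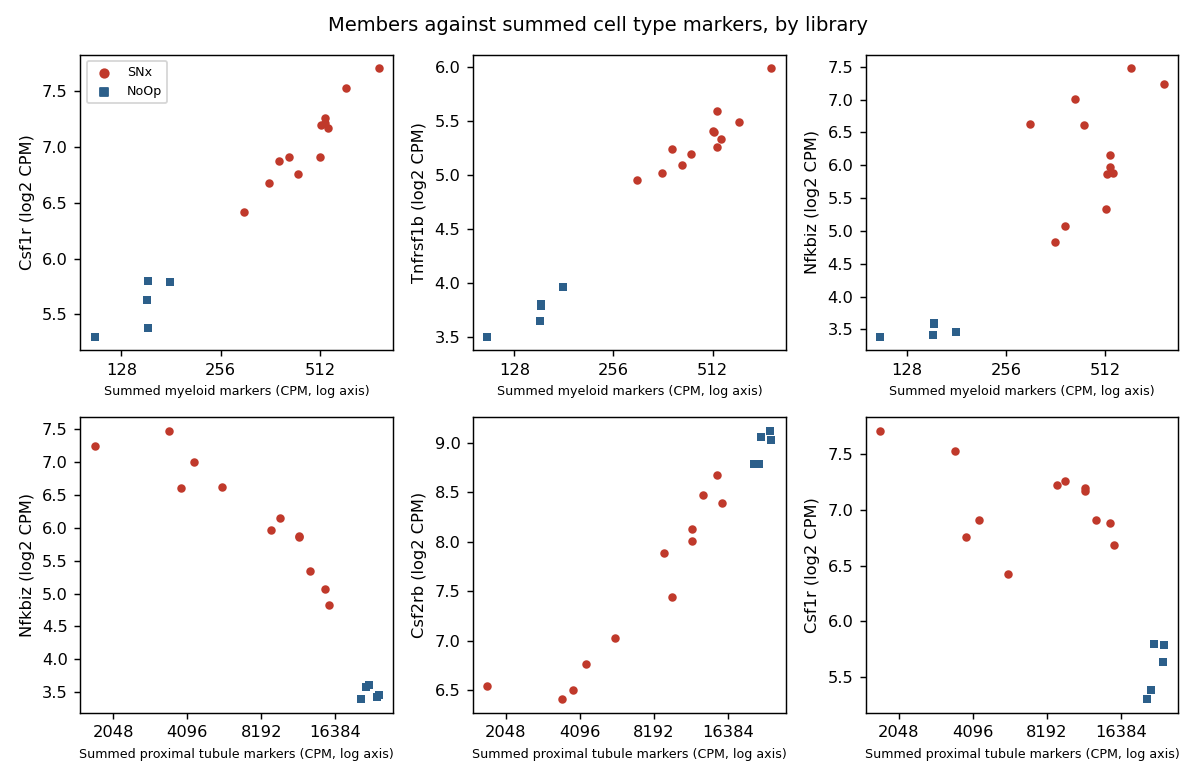
Log2 CPM of Csf1r, Tnfrsf1b, Nfkbiz and Csf2rb against the summed myeloid (16 genes) or proximal tubule (8 genes) markers in CPM on a log axis, 1 point per library (SNx red, NoOp blue). Among SNx libraries Csf1r and Tnfrsf1b climb with the myeloid sum, Nfkbiz declines and Csf2rb climbs with the proximal tubule sum, and the r of Csf1r with the latter was -0.41.

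Known partners were compared in the same 12 SNx libraries over 6 pairs. Nfkb2 had r = 0.96 with its dimer partner Relb (rho = 0.92, r = 0.93 without 2 libraries) and r = 0.98 with the inhibitor Nfkbie (rho = 0.98, r = 0.97 without 2 libraries), and as all 3 stand in the study 2 list these are given with no test. Within the lower and higher title ranges r was 0.99 and 0.94 for Relb and 1.0 and 0.94 for Nfkbie. The 4 ligand and receptor pairs did not pass. Ccl21 and Ccr7 had r = 0.43 (rho = 0.34, permutation p = 0.16 and 0.29, adjusted p = 0.2 and 0.34, r = 0.36 without 2 libraries), and Ccl7 and Ccr1 had r = -0.43 (rho = -0.58, permutation p = 0.16 and 0.052, adjusted p = 0.2 and 0.078, r = -0.42). Il34 and Csf1r had r = 0.44 (rho = 0.58, permutation p = 0.15 and 0.052, adjusted p = 0.2 and 0.078, r = 0.54). Il7 and the receptor subunit Il2rg had r = 0.09 (rho = -0.17, permutation p = 0.8 and 0.61, adjusted p = 0.8 and 0.61), and r was -0.76 without 2 libraries.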

How the data were processed

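Kidney RNA was depleted of ribosomal RNA and made into strand-specific libraries. The authors deposited estimated counts per gene, made with Salmon against rn6 transcripts and summarised with tximport (versions are not given in the sources used here), and these were rounded to whole numbers. A deposited voom table of log2 values was not used. Of 23487 genes, 15438 passed filterByExpr (edgeR 4.0.16, R 4.3.3), were scaled by TMM and tested with the quasi-likelihood test, adjusted by Benjamini-Hochberg at 0.05. Levels are log2 CPM with a prior count of 2. CPM is not corrected for transcript length. 3 counts correspond to 0.0776 to 0.147 CPM. Relations used 100000 permutations (scipy 1.17.1). Counting intervals and floors cover counting error only.

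Symbols were known only for genes in the parts of the study's lists used here, so an exact test planned for the marker sums is not quoted. The 2 planned pairs with Ccl3 could not be computed. Each member was named except 1, which, like 1 marker gene, is counted but not reported here. The largest and smallest change of each role group, and members that were lower or did not pass, were given with library values, and for relations the 3 highest and 3 lowest r. Members and lists were chosen with earlier results of these data known. Each library has its own title number, but the labels do not state that it is a separate animal, so p-values measure the spread between these samples, which may be technical. Alternatives were DESeq2 1.42.0, limma-voom 3.58.1, other scalings, filters, a fold threshold, a prior count of 0.5 and leaving out each of 17 libraries. The code was tested on simulated data.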

Additional observations from a re-analysis of the deposited data

Results flagged for a closer look

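Il2rg, the common gamma chain, had a control library apart from the others. NoOp 5 had 1.65 log2 CPM while the other 4 controls had 2.41 to 2.53. Without NoOp 5 the log2 fold change was 1.47, against 1.61 with all libraries. This was 1 of the 44 control groups examined, where about 2.20 would be set apart by chance at 1 in 20.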

How the results depend on the processing

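Of 738 alternative values of fold changes of members with a test, 737 kept their direction and side of the threshold and none reversed, and the 311 of members without a test kept their direction. The other was Tnfaip2, which passed when scaled by library size alone (0.39, edgeR quasi-likelihood adjusted p = 0.036, against 0.18 and 0.27). With that scaling the median log2 fold change of all genes was 0.23 in place of 0.02, and 74.6% of called genes were higher in place of 52.2%. Genes called fell from 8949 to 5165 with a 1.5-fold threshold, and were 7914 to 9438 with each library left out. Members with a test stayed at 27 higher and 3 lower under DESeq2, limma-voom, RLE and the fold threshold. With at least 10 counts in every library 25 members were tested, of which 21 were higher and 3 lower. Counted over all 44 members, those of the study 2 list included, myeloid relations numbered 14 under library size alone and 15 with total counts taken out, against 8, and 7 to 11 with each SNx library left out. Proximal tubule relations numbered 17 to 20 with each left out. In these counts the members of the study 2 list are described only, and their passes are not read as tests. Over the 31 members with a test, 7 myeloid relations passed, and 14 with total counts taken out. For the proximal tubule sum these counts were 9 and 10. The counts with total counts taken out have no share of all tested genes beside them and are not read as particular to the members. A check of alternative values covered only the relations with the 3 highest and 3 lowest r for each sum over all 44 members. Most other relations past the threshold were not in it, among them that of Ccl7, which did not pass with total counts taken out. Of the 128 alternative values for members with a test, 127 kept sign and side, and the 64 of the others kept their sign. The exception was Ccr1 with the proximal tubule sum, which passed without SNx 1 (r = 0.80, permutation test, adjusted p = 0.018). The cause was not tested. No paired analysis was made, since the study's methods describe control and SNx rats as separate animals and the labels give no pairing. With no filter all 32 members outside the study 2 list were tested, Ccl3 included, and 27 were again higher and 3 lower. Low counts limit Ccl3, Ccl7, Ccl22, Ccr6, Ccr7, Cxcl6, Il7 and Tnfsf8, each with under 10 counts in at least 1 library.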
